A study of Drosophila melanogaster with 36 samples.

Results

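Rhino ChIP was measured in Drosophila melanogaster ovaries over 139714 bins of 1 kb of the dm3 genome. In 388 bins of the chromosome arms outside the large piRNA clusters, its signal met the threshold given below. They are called Rhino-bound here, although 36 of them were still 4-fold over input in rhino knockdown. These euchromatic Rhino-bound bins were chosen from the table's own values. A bin had to lie outside the regions flagged heterochromatic, outside chromosome 4 and outside the flagged major clusters, to reach 25% of the median input signal, and to show a control Rhino ChIP signal at least 4-fold over input after adding 1 to both. Of 123742 bins past the input filter, 110532 were eligible, so the 388 made up 0.351% of them. Another 255 bins of the major clusters and 3500 bins of heterochromatin and chromosome 4 met the same 4-fold rule, which 3.35% of all bins past the filter did.

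All ovaries came from females aged 4 to 6 days, kept at 25 °C, with a knockdown in the germline. The groups were a control knockdown and knockdowns of rhino, deadlock, cutoff and piwi. The depletion was in the germline, so the somatic follicle cells of these ovaries kept the genes, and whole ovaries were sampled. The promoter that drove the knockdown and the control target are not given in the sources used here. Rhino ChIP covered all 5 knockdowns. Deadlock and Cutoff ChIP covered the control and the matching knockdown, and H3K9me3 ChIP covered the control, rhino and piwi knockdowns. Small RNA of 18 to 29 nt and total RNA covered the control, rhino, deadlock and cutoff knockdowns. Nascent RNA (GRO-seq) and RNA polymerase II (Pol II) ChIP covered the control and rhino knockdown. Small RNA bound to Piwi was sequenced from piwi knockdown ovaries, a library the submitters label as somatic piRNA.

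Rhino, an HP1-type chromodomain protein of the female germline, binds histone H3 trimethylated at lysine 9 (H3K9me3). Deadlock links Rhino to Cutoff, a protein related to RNA-end-processing enzymes, and the complex allows transcription of piRNA clusters from both strands without the usual promoters. The transcripts are cut into piRNAs, small RNAs that guide Piwi proteins to silence transposons, and nuclear Piwi itself directs H3K9me3 to its targets. The question for the isolated sites in the chromosome arms is which of these features of large clusters they share.

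Replicates were available as separate columns in the control RNA-seq only. Control and piwi Rhino ChIP, all H3K9me3 ChIP and the input are the authors' means of 2 libraries, and every other column is 1 library. Differences are therefore given as values, with no test, except for RNA-seq. A median over bins is given with a 95% interval that covers the spread over bins, not the spread between ovaries, and neighbouring bins share a locus. In whole ovaries, fewer germ cells and less RNA per germ cell cannot be told apart.

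The bound bins were not spread evenly. The X chromosome held 189 of the 388, followed by 3R with 69, 2R with 51, 3L with 43 and 2L with 36. By position, 210 bins were interior, 140 lay within 1000 kb of the centromere-proximal limit of the unflagged arm, and 38 lay within 100 kb of the distal arm end. The bound share was 0.198% of eligible interior bins, 3.38% of eligible proximal bins and 8.96% of eligible distal-end bins. The label euchromatic needs a limit here. No bin on X or 3R was flagged heterochromatic in the table, and 86 bound bins lay in the last 1000 kb of X and 27 in the first 1000 kb of 3R, so part of the set adjoins pericentromeric heterochromatin.

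Mappability, the share of a bin that reads can be placed in uniquely, divided the set. The index was 0.5 or higher in 192 bound bins and lower in 196, of which 88 were under 0.05. Among eligible unbound bins 1.31% were below 0.5. The deposited signal is divided by this index, so a single read in a bin of very low index gives a large value, and results are given for all bound bins and for the 192 mappable ones. Of the mappable ones, 180 carried the authors' own Rhino peak flag, against 30 of the 196 others. By its name that flag rests on Rhino signal, which also chose the bins, so the overlap is no separate support. The flag RD-SL, which the authors set from these libraries, marked 135 of the 192, and 47 lay in piRNA clusters published earlier. These flag counts are a description, with no share over all bins beside them.

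Bound bins no more than 3 kb apart were joined into 169 domains. A single bin made up 114 of them, and 86 of these 114 had a mappability under 0.5. The 32 domains of at least 3 bins held 228 of the 388 bins, and the longest held 28. Among mappable interior bins, X had 40 bound bins in 16 domains, 2R had 24 in 11, 3L had 17 in 7, 3R had 16 in 7 and 2L had 3 in 3. As shares of the eligible mappable interior bins of each arm these were 0.199% on X, 0.136% on 2R, 0.0811% on 3L, 0.0618% on 3R and 0.015% on 2L.

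Rhino signal itself chose the set, so its values are a description. In the 192 mappable bins, the median signal was 54.4 in control ovaries against 9.19 in input. It was 11.02 in rhino knockdown, 11.1 in deadlock knockdown, 9.92 in cutoff knockdown and 17.5 in piwi knockdown. The first 3 knockdowns thus sat near input, and piwi knockdown lay between input and control. Signal was at least 2-fold lower than control in 190 of 192 bins in rhino knockdown (15.9% of all bins past the filter), 188 in deadlock knockdown (18.5%) and 184 in cutoff knockdown (4.41%), and 0 were 2-fold higher in any of these (7.81%, 9.22% and 0.677% of all bins). For scale, 9.37% of all bins had control Rhino at least 2-fold over input and 0.181% were 2-fold under it. In piwi knockdown 142 were lower (1.85%) and 5 were higher (2.29%). None of the 192 was still 4-fold over input in rhino or cutoff knockdown and 1 was in deadlock knockdown, while 32 were in piwi knockdown. The 1 bin in deadlock knockdown started at 21804001 on X. By position, the 32 were 11 of 100 interior bins, 15 of 66 proximal bins and 6 of 26 distal-end bins.

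Bins of mappability under 0.5 behaved less evenly. Their median Rhino signal was 51.9 in control, 9.36 in rhino knockdown, 6.13 in deadlock knockdown, 20.3 in cutoff knockdown and 31.0 in piwi knockdown. Of these 196 bins, 36 were still 4-fold over input in rhino knockdown, 34 in deadlock knockdown and 61 in cutoff knockdown. Over all 388 bins the median change on the log2(signal + 1) scale was -2.49 in rhino, -2.47 in deadlock, -2.14 in cutoff and -1.12 in piwi knockdown.

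**Figure D1:**
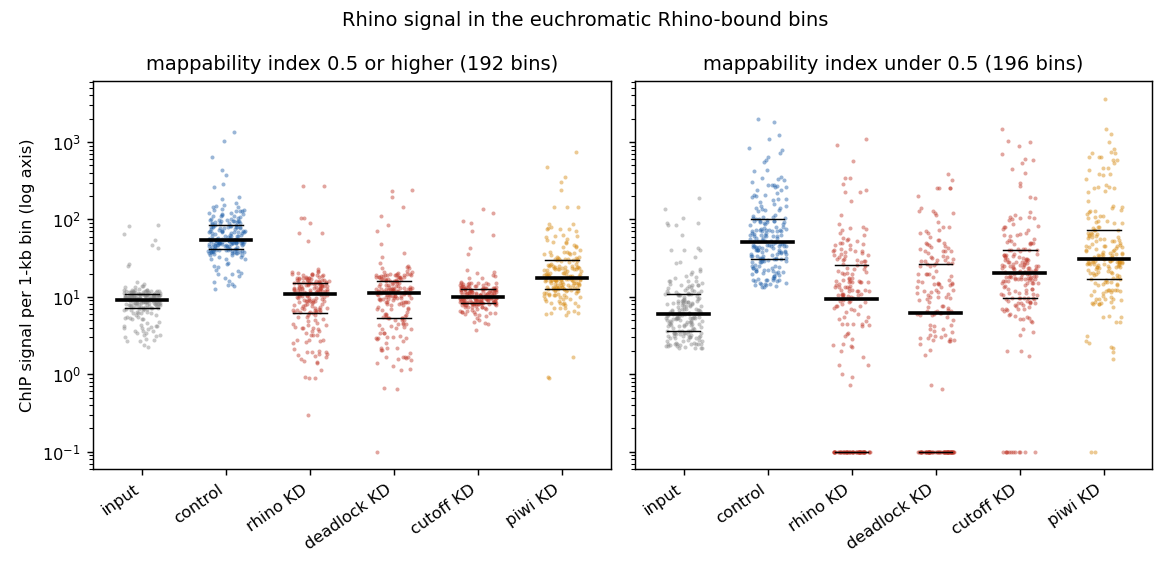
ChIP signal per 1-kb bin (log axis) for input and for Rhino in the control and 4 knockdown (KD) groups, in bound bins of mappability 0.5 or higher (left, 192 bins) and lower (right, 196 bins). Points are bins, thick lines medians and thin lines quartiles; on the left the control median of 54.4 stands above 11.02, 11.1, 9.92 and 17.5 in the knockdowns, and on the right the knockdown values spread more widely.

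The bins just around the threshold show how it cuts. Just inside it, at 4.00-fold, lay the exon bin 2136001 to 2137000 of 2R, where control Rhino was 36.8 and rhino knockdown was 6.93. It had 27.3 of control small RNA signal and 0.505 in rhino knockdown. At 4.01-fold came a bin of 3L starting at 21370001 with a mappability of 0.026 and a bin of 3R starting at 17136001 with no small RNA read in any library. Just outside, at 3.99-fold, lay an exon bin of X starting at 4512001, where Rhino was 32.4 in control and 4.998 in rhino knockdown, and a bin of 3R starting at 14964001. A bin of 3L starting at 21952001, with a mappability of 0.024, was the closest below, at 3.9972-fold.

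Deadlock and Cutoff, the partners of Rhino, were higher in control than after their own knockdown in most mappable bound bins, by less than 2-fold at the median. Median Deadlock signal was 17.4 in control and 9.89 in deadlock knockdown, a difference of 0.68 on the log2 scale (95% interval over bins 0.59 to 0.79). Median Cutoff signal was 12.9 and 9.30, a difference of 0.43 (0.31 to 0.56). A 2-fold excess was reached by 49 of 192 bins for Deadlock (1.27% of all bins) and by 39 for Cutoff (3.14%), while 5 (2.60%) and 13 (6.12%) were 2-fold lower in control. Summed reads gave control over knockdown ratios of 1.91 for Deadlock (1.88 to 1.95, exact Clopper-Pearson limits of counting error) and 1.55 for Cutoff (1.52 to 1.57). As a description over the 192 bins, which share libraries and loci, the Spearman rho of the Deadlock and Cutoff excess was 0.66. Rhino enrichment had a rho of 0.48 with the Deadlock excess and 0.26 with the Cutoff excess. In low-mappability bins neither partner stood above its knockdown at the median: the medians were 0.00 for Deadlock (-0.32 to 0.10) and -0.22 for Cutoff (-0.43 to -0.02). Summed reads of these bins gave ratios of 1.14 for Deadlock (1.09 to 1.19) and 0.746 for Cutoff (0.722 to 0.771). In bound major cluster bins of mappability 0.5 or higher the Deadlock excess was 1.32 at the median and the Cutoff excess 0.80. Euchromatic bins with Rhino 2- to 4-fold over input lay on the other side of equality, at -0.60 and -0.64. Over all 388 bound bins the medians were 0.41 and 0.10.

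H3K9me3, the mark that Rhino binds, was present at most sites. Its median control signal in the mappable bins was 28.1, a log2 excess over input of 1.72 (1.55 to 1.86), with the input column shared with the selection rule. The excess reached 2-fold in 151 of 192 bins (14.4% of all bins, with 33.6% at least 2-fold under input) and 4-fold in 70 (9.68% of all bins). Bound major cluster bins had a median of 2.74 and bound bins of heterochromatin and chromosome 4 had 2.48, both higher than the euchromatic sites. Eligible bins with Rhino between 2- and 4-fold over input had 0.78. Rhino enrichment and H3K9me3 signal had a rho of 0.09 over the 192 bins, a description.

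Loss of Rhino left H3K9me3 close to control. The median signal was 27.3 in rhino knockdown, a log2 difference of -0.11 (-0.17 to -0.04), and 7 bins were 2-fold lower (1.51% of all bins) against 4 that were 2-fold higher (3.75%). In piwi knockdown the median signal was 24.6, a difference of -0.23 (-0.29 to -0.11), with 17 bins 2-fold lower (1.05%) and 1 higher (1.00%). The difference in piwi knockdown varied with position. At distal arm ends it was -0.81 (-1.23 to -0.53, 26 bins, of which 9 were 2-fold lower), in the interior it was -0.27 (-0.37 to -0.17, 100 bins), and in proximal bins it was 0.06 (-0.09 to 0.13, 66 bins). Exon bins gave -0.34 (-0.42 to -0.26) and bins without an exon -0.10 (-0.20 to -0.03). Since replicates come as the authors' means, none of these differences was tested.

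Small RNA showed the largest differences between control and knockdowns. In the mappable bins the median signal was 30.2 in control (quartiles 12.2 and 99.6) against 0.707 with rhino depleted, 0.544 with deadlock depleted and 0.573 with cutoff depleted. The median differences were -4.09 (-4.36 to -3.62), -4.03 (-4.34 to -3.64) and -4.05 (-4.33 to -3.72) on the log2 scale. Signal was at least 2-fold lower in 174 bins in rhino knockdown (11.6% of all bins), 170 in deadlock knockdown (12%) and 175 in cutoff knockdown (11.7%), and 2-fold higher in 0, 1 and 0 bins (4.49%, 6.40% and 5.13%). In 168 of the 192 it was at least 2-fold lower in all 3 libraries (10.5% of all bins). Over all 388 bins the count was 288, and the medians were -3.84, -3.87 and -3.94. With 1 bin taken per domain, the one with the highest Rhino over input, these became -1.85, -1.85 and -1.82. Of those 169 bins, 86 were single-bin domains of mappability under 0.5. In the 210 interior bins the medians were -2.37, -2.21 and -2.47. Eligible mappable bins with Rhino 2- to 4-fold over input had medians of -0.04, -0.04 and -0.01.

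In reads, the 388 bins held 134410 of the 3757435 control small RNA reads of the table, or 3.58%. In rhino knockdown they held 9484 of 2039855 reads, or 0.465%. Scaled for depth as deposited, summed signal was 16.7-fold lower in rhino knockdown (16.4 to 17.1), 10.3-fold lower in deadlock knockdown (10.2 to 10.5) and 16.5-fold lower in cutoff knockdown (16.2 to 16.8), with limits that cover counting error only. These folds depend on the scaling of the libraries. As a share of all small RNA reads in the table, a scaling chosen after the data were seen, the bound bins were 7.69-, 5.11- and 8.30-fold lower. That scaling raises the knockdown signal by factors of 2.17, 2.02 and 1.98. Every small RNA fold given here on the deposited scale would shrink by about those factors. Scaled so, a difference of at least 2-fold was still present in 166, 163 and 166 of the 192 mappable bins (10.2%, 10.6% and 10.4% of all bins) and in 160 in all 3 knockdowns (9.09%), with medians of -3.70, -3.78 and -3.82. The summed reads rest on few loci. The domain richest in Rhino held 30.4% of the control reads of all bound bins, and the 10 domains richest in small RNA reads held 79.7%. By position, mappable interior bins were 31.0-, 25.9- and 31.6-fold lower with these 3 genes depleted in turn, and proximal bins 51.2-, 58.0- and 51.2-fold lower. Distal-end bins were 8.86-, 4.62- and 8.57-fold lower, of 46023 control reads. The domain richest in Rhino lay at a distal end. It held 40920 of the 53803 control reads of distal-end bins of any mappability. The pooled distal-end folds thus rest mostly on that domain, whose own folds are given below, and are not a measure of position.

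**Figure D2:**
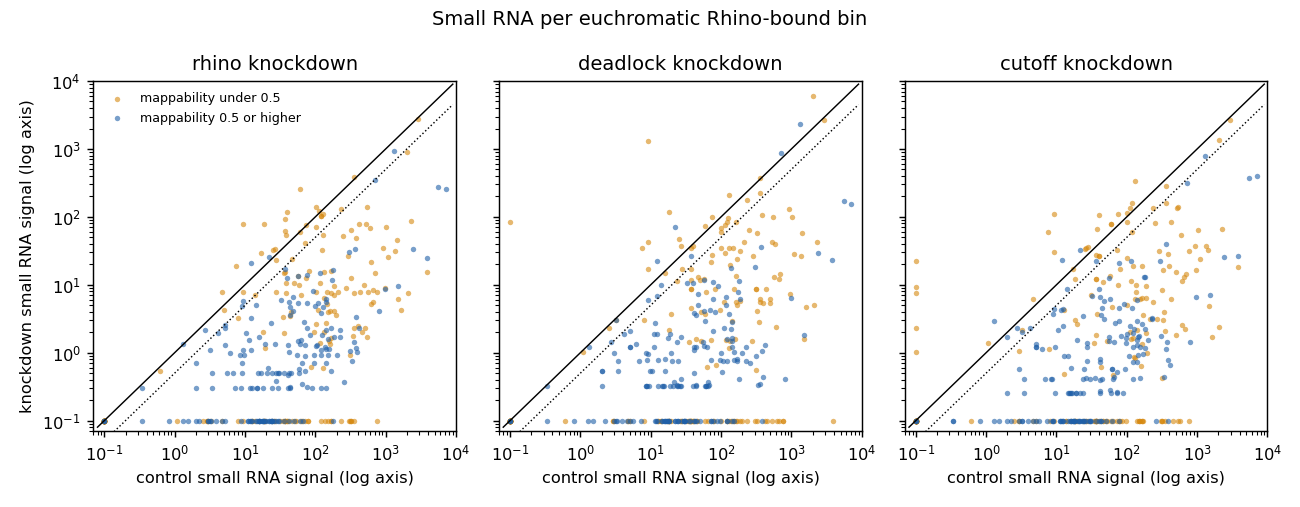
Small RNA signal per bound bin in control (x, log axis) against each of the 3 knockdowns (y, log axis), with points as bins coloured by mappability, the solid line as equality and the dotted line as 2-fold lower. A signal of 0.1 means no read; 168 of the 192 mappable bins lie below the dotted line in all 3 panels.

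How much small RNA a bound bin carried varied with its setting. Control signal was at least 10 in 151 of the 192 mappable bins and at least 100 in 48, and 3 bins had no read. Bins in domains of 3 or more had a median of 43.6, those in domains of 1 or 2 bins 9.05. Bins in published clusters had 111, those outside 19.9, yet outside published clusters 128 of 145 bins were still 2-fold lower in rhino knockdown. Bins without an exon had 41.7 and exon bins 21.8, with median differences in rhino knockdown of -4.53 (-4.88 to -4.18) and -3.23 (-3.61 to -2.37). Control small RNA and Rhino enrichment had a rho of 0.28 over the 192 bins, a description. The 41 mappable bins with a control small RNA signal under 10 had a median Rhino log2 excess over input of 2.21, against 2.58 over the 192. Every bound bin had to be at least 4-fold over input, so this excess was set in part by the rule and is a description. Bound major cluster bins stood far higher, with a median control signal of 1244 and a median difference of -7.70 in rhino knockdown.

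Piwi-bound small RNA from piwi knockdown ovaries, the library labelled as somatic piRNA, was low at these sites. The median signal in the mappable bins was 0.168 against 30.2 in control total small RNA, and 186 of 192 bins were at least 2-fold lower (21.3% of all bins) and 0 higher (0.112%). The 2 libraries are of different kinds, so the values stand side by side only. The authors' flag SO-SL marked 2 of the 192 bins and the flag RI-SL marked 5, counts given without a share over all bins.

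Steady-state RNA was lower after each knockdown in most mappable bins, at low absolute levels. Median RNA-seq signal was 0.655 in the first control library and 0.785 in the second. It was 0.115 with rhino depleted, 0.103 with deadlock depleted and 0.0785 with cutoff depleted. All 3 knockdown medians lay below both controls. Per bin, 133 of 192 were below both controls in all 3 knockdowns (20.1% of all bins) and 12 were above both (7.96%). The count below both was 76 of 100 interior, 45 of 66 proximal and 12 of 26 distal-end bins, and 6 of the 26 distal-end bins were above both. Median differences on the log2(signal + 1) scale were -0.34 (-0.44 to -0.27), -0.38 (-0.49 to -0.32) and -0.39 (-0.48 to -0.31), a scale that understates changes at such levels. On it 12, 13 and 14 bins were 2-fold lower (1.23%, 2.29% and 1.43% of all bins) and 5, 6 and 5 higher (0.756%, 0.905% and 0.511%), while the second control library against the first gave 5 lower (0.962%) and 6 higher (4.29%). With a pseudocount of 0.1 they were -1.02, -1.25 and -1.25, and signal was 2-fold lower in 97 bins in rhino knockdown (6.50% of all bins), 107 in deadlock knockdown (10.2%) and 107 in cutoff knockdown (9.16%). It was 2-fold higher in 12, 13 and 9 (2.63%, 2.96% and 1.62%). On the same scale the second control library stood 0.29 above the first, with 13 bins 2-fold lower (3.18%) and 40 higher (16%). Over all 388 bins the medians with the pseudocount of 1 were -0.22, -0.24 and -0.25. They were -0.14, -0.15 and -0.16 with the second control library left out, and -0.11, -0.12 and -0.12 with 1 bin taken per domain. Bins without an exon differed more than exon bins: with the pseudocount of 0.1 the medians in rhino knockdown were -1.53 and -0.53.

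No bin passed the RNA-seq test by itself. limma with Benjamini-Hochberg adjustment over 123742 bins, taking its spread from the 2 controls, called 0 bound bins and 0 bins in all (0% of all bins) in each of the 3 knockdowns. At an unadjusted p under 0.05 it found 12 lower and 28 higher bound bins in rhino knockdown, 15 and 35 in deadlock knockdown and 16 and 25 in cutoff knockdown. Over all bins, 5.43%, 6.48% and 4.39% passed that unadjusted limit in either direction. On simulated data for the rhino comparison this design called 0% of bins made 8-fold lower, so it had no power for differences of that size. Treating the 3 knockdowns as 1 group of 3 libraries, a choice made after the data were seen, called 0 bound bins, with 3 bins lower (0.00242%) and 10 higher (0.00808%) in the whole table. With bins filtered to a mean RNA-seq signal of at least 0.1 it called 27 of 332 bound bins lower (0.387% of the 63626 bins tested) and 9 higher (0.275%). A fit to mappable bins alone gave 0 calls among the 192, with 107 lower and 10 higher at an unadjusted p under 0.05, which 9.46% of the 115199 bins in that fit passed in either direction.

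Nascent RNA and Pol II were also lower in rhino knockdown at the median of the mappable bins. Median GRO-seq signal in the mappable bins was 2.98 in control and 1.16 in rhino knockdown, a difference of -0.41 (-0.56 to -0.14). Signal was 2-fold lower in 48 bins (3.88% of all bins) and 2-fold higher in 14 (4.37%). Summed GRO-seq reads were 19380 in control and 17749 in rhino knockdown, a ratio of 0.972 (0.953 to 0.992), and the sum includes bins with control signals up to 502. Bins without an exon had a median of -0.60 (-0.80 to -0.33) and exon bins -0.17 (-0.41 to 0.07). Median Pol II signal was 4.89 and 4.04, a difference of -0.16 (-0.25 to -0.09), with 2 bins 2-fold lower (0.905% of all bins) and 2 higher (1.29%). By position the GRO-seq median was -0.54 in proximal bins, -0.38 in the interior and -0.01 at distal ends, where summed reads were higher in rhino knockdown by a ratio of 1.47 (1.34 to 1.60). That sum includes the distal-end X domain described below, where GRO-seq reads were higher in rhino knockdown by a larger ratio. The pooled ratio therefore does not describe distal ends in general. Over all 388 bins the medians were 0.00 for GRO-seq and -0.14 for Pol II. In the major clusters the medians were -1.01 for GRO-seq and -0.65 for Pol II. Summed reads there were closer to equality. In the 79 mappable bound cluster bins the ratios were 0.985 (0.941 to 1.03) for GRO-seq and 1.02 (0.996 to 1.04) for Pol II. In all 255 bound cluster bins they were 0.994 (0.958 to 1.03) and 0.872 (0.855 to 0.889).

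**Figure D3:**
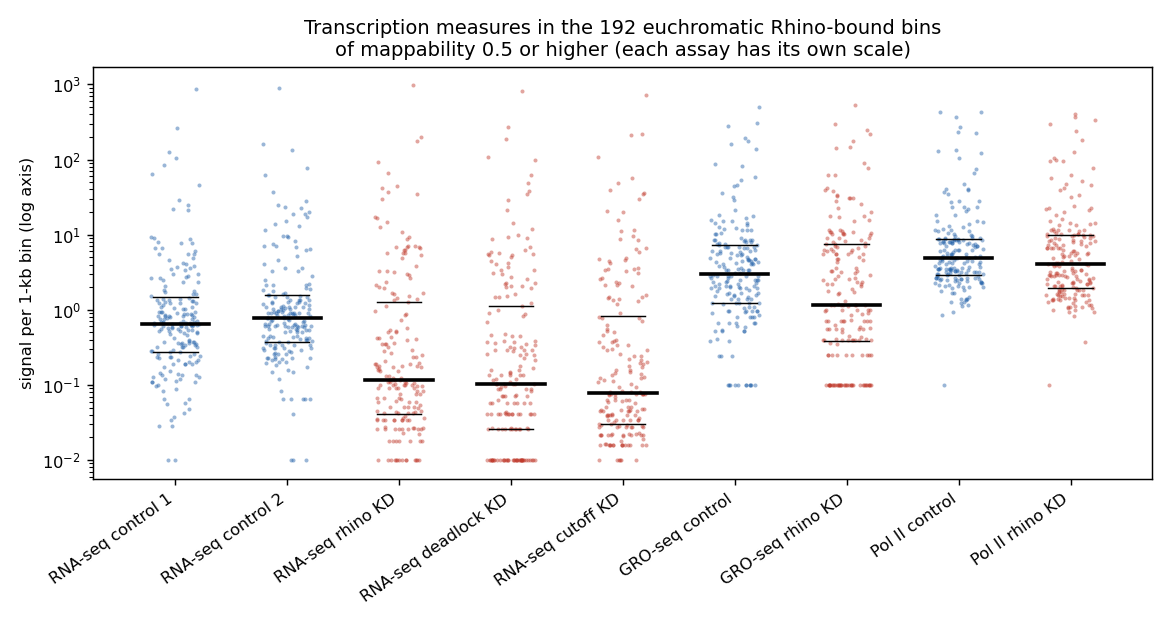
RNA-seq, GRO-seq and Pol II signal per bin (log axis) in the 192 mappable bound bins, 1 column of points per library, with thick lines for medians and thin lines for quartiles. RNA-seq medians were 0.655 and 0.785 in the controls against 0.115, 0.103 and 0.0785, GRO-seq went from 2.98 to 1.16, and Pol II from 4.89 to 4.04; the highest bins were at like levels in each library of an assay.

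**Figure D4:**
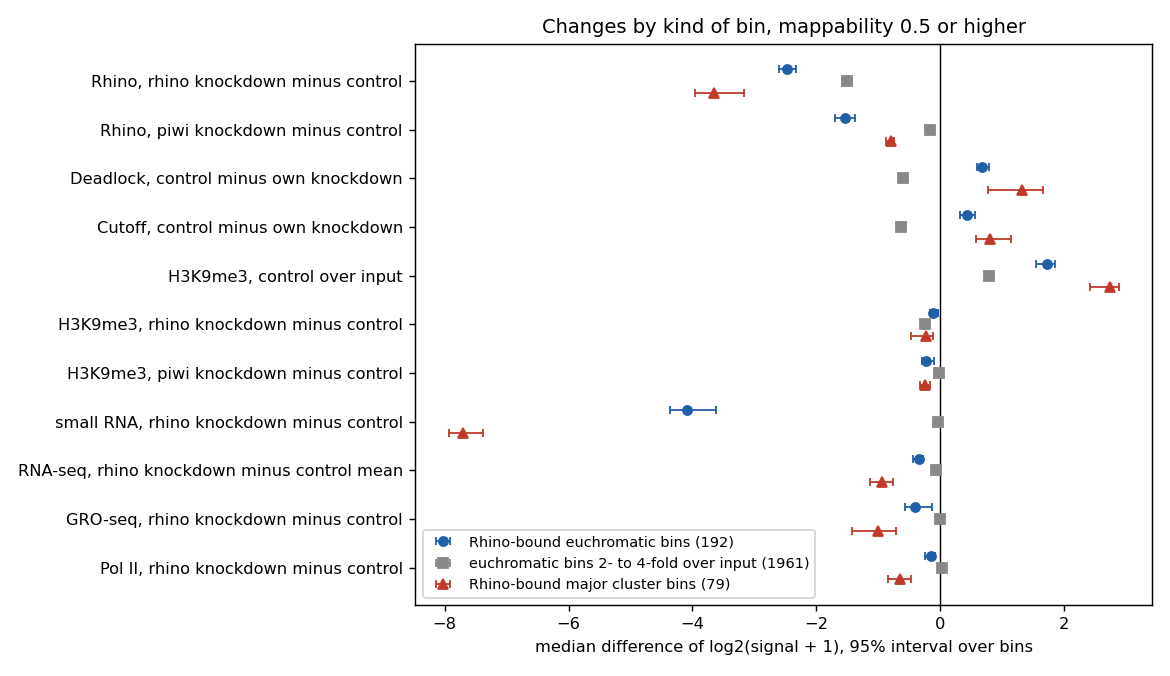
Median difference of log2(signal + 1) with its 95% interval over bins for 11 comparisons, in the 192 mappable euchromatic bound bins, 1961 euchromatic bins with Rhino 2- to 4-fold over input and 79 bound major cluster bins. Small RNA in rhino knockdown stands at -4.09, -0.04 and -7.70 in the 3 kinds of bin.

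The domain with the largest summed Rhino signal above input covered 2001 to 16000 of X, at the distal end of the chromosome, with 11 bound bins, all inside a published cluster. Its mean Rhino signal was 424 in control, 78.8 in rhino knockdown, 71.9 in deadlock knockdown, 54.2 in cutoff knockdown and 121 in piwi knockdown. Mean Deadlock was 146 against 63.5 in its knockdown, and mean Cutoff 91.9 against 48.2. Mean H3K9me3 was 149 in control, 136 in rhino knockdown and 73.1 in piwi knockdown. Deadlock and Cutoff thus stood above their own knockdowns, and the mark was lower in piwi than in rhino knockdown. Rhino did so too, but its control signal chose and ranked the domain.

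It held 40920 control small RNA reads, and summed signal was 8.22-fold lower in rhino knockdown (8.00 to 8.45), 4.17-fold lower in deadlock knockdown (4.08 to 4.26) and 7.98-fold lower in cutoff knockdown (7.78 to 8.17). These folds were smaller than those of the other named domains of 10 or more bins. The bin starting at 8001 differed from its neighbours, with a small RNA signal of 1308 in control and 928, 2292 and 787 in the knockdowns. The bins starting at 6001 and 7001, the richest in small RNA of the whole set, went from 7116 to 259, 156 and 401 and from 5526 to 274, 170 and 373. Transcription at this domain was higher after rhino knockdown: GRO-seq reads were 179 in control and 596 in the knockdown, a ratio of 3.53 (2.99 to 4.20), and Pol II gave 1.67 (1.59 to 1.75). Mean RNA-seq signal was 0.229 and 0.562 in the controls and 1.18 with rhino depleted, 2.37 with deadlock depleted and 0.688 with cutoff depleted.

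The proximal X held 4 of the named domains. The longest, 28 bins between 21793001 and 21842000, had a mean Rhino signal of 152 in control and 293 in piwi knockdown. It was 35.5 with rhino depleted, 42.4 with deadlock depleted and 58.4 with cutoff depleted. Rhino was therefore higher after piwi knockdown, the reverse of the median bound bin. Its small RNA was 44.6-fold lower in rhino knockdown (41.2 to 48.4, of 23567 control reads), and H3K9me3 was 174 in control, 163 in rhino knockdown and 185 in piwi knockdown. Its bin starting at 21803001 had a small RNA signal of 3811 in control and 24.7, 23.1 and 26.4 in the knockdowns.

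A second domain with more Rhino in piwi knockdown lay nearby, with 10 bins between 21759001 and 21777000 and a mean mappability of 0.0923. Its mean Rhino signal was 126 in control and 587 in piwi knockdown, and its H3K9me3 51.0 and 129. Of the 65 domains with a mappable bin, 8 had a higher mean Rhino signal in piwi knockdown than in control. The other 2 proximal X domains did not: the 23 bins between 22371001 and 22400000 had 78.4 in control and 21.7 in piwi knockdown, and the 9 bins between 22341001 and 22360000 had 71.2 and 22.4. The former had less nascent RNA in rhino knockdown, with 175 control and 19 knockdown GRO-seq reads and a ratio of 0.12 (0.07 to 0.19). Its small RNA was 104-fold lower (79.9 to 139).

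On 3R, 21 bins between 1001 and 23000 formed a proximal domain of high mappability, 0.880 on average. Mean Rhino was 79.5 in control, 7.43 in rhino knockdown, 7.91 in deadlock knockdown, 11.98 in cutoff knockdown and 25.7 in piwi knockdown. Small RNA went from 130 to 2.21, 1.89 and 1.81, while H3K9me3 was 33.4 in control, 31.2 in rhino knockdown and 32.1 in piwi knockdown. At the other end of the arm, 5 bins between 27894001 and 27899000 had Rhino of 245 in control and 34.4 in piwi knockdown, with H3K9me3 of 80.1, 43.9 and 49.1 in control, rhino and piwi knockdown. Small RNA there was 295-fold lower in rhino knockdown (200.9 to 451), and RNA-seq was 3.56 and 6.43 in the controls against 0.628, 0.513 and 0.631.

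Among the 12 domains ranked highest by Rhino, 5 were of very low mappability and showed little of this. A domain of X between 129001 and 133000 (mean mappability 0.0207) had Rhino of 708 in control and 522 in cutoff knockdown, and 3 control small RNA reads against 18, 10 and 32 in the knockdowns. Single bins of 3L starting at 8013001, of X starting at 19830001 and of 2L starting at 5835001, each with a mappability of 0.001, had no small RNA read in control or the 3 knockdowns. Of these, the 2L bin had Rhino of 570 in rhino knockdown against 793 in control. A bin of 3L starting at 22755001 (mappability 0.002) had Rhino of 1241 in control and 1082 in rhino knockdown and 1 control small RNA read.

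Low mappability also marked the remaining sites named for their small RNA. The bin of 2L starting at 3204001 (0.021) had a small RNA signal of 2910 in control, 2796 with rhino depleted, 2650 with deadlock depleted and 2704 with cutoff depleted, and 5760 in the somatic Piwi-bound library. Its small RNA was thus at a like level in all 4 total libraries. The bin of 2L starting at 12794001 (0.026) was the opposite, with 3865 in control, 15.7, 0.1 (no read) and 18.3 in the knockdowns and 0.974 in the somatic library. Its control reads numbered 421. A pair of bins of 2R between 6836001 and 6840000 (0.017) had 253 control reads and was 19.9-fold lower in rhino knockdown (11.8 to 36.1). The bin of X starting at 19696001 (0.002) had 17 control reads and a signal of 2029 in control, 911, 5987 and 1341 in the knockdowns, and 761 in the somatic library.

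Interior domains with at least 3 mappable bins show the sites that adjoin neither a chromosome end nor the pericentromere, and 13 were present. Except for the first, which the Rhino ranking named, they were chosen for display after their values were seen. Mean small RNA was at least 2-fold lower in all 3 knockdowns in 13 of 13 and at least 10-fold lower in 11. Mean Deadlock was above its own knockdown in 13 and mean Cutoff in 12. Rhino in piwi knockdown was below control in all 13. RNA-seq lay below both controls in all 3 knockdowns in 8, and GRO-seq was lower in rhino knockdown in 8. Over all 65 domains with a mappable bin, small RNA was at least 2-fold lower in all 3 knockdowns in 55 and at least 10-fold lower in 37. Deadlock was above its own knockdown in 57 of the 65 and Cutoff in 46. RNA-seq was below both controls in 37 and above both in 9. Of all single bins past the filter, 20.1% and 7.96% were. Those shares are of single bins and the counts are of domain means, so they are not a like background. GRO-seq was lower in 33 of the 65, so it split about evenly. Rhino was higher in piwi knockdown in 8. No share over all bins is given for the other domain counts, which are a description.

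The strongest of them, 5 bins of 3L between 19854001 and 19860000, lay in a published cluster. Mean Rhino was 159 in control and 5.15 with rhino, 6.97 with deadlock, 13.9 with cutoff and 18.8 with piwi depleted. Small RNA was 170-fold lower in rhino knockdown (133 to 222, of 8947 control reads), 642-fold lower in deadlock knockdown (389 to 1148) and 301-fold lower in cutoff knockdown (225 to 413). RNA-seq was 2.63 and 1.41 in the controls and 0.086, 0.202 and 0.182 in the knockdowns. GRO-seq reads were 452 in control and 305 in rhino knockdown, a ratio of 0.72 (0.62 to 0.83).

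Other interior domains were fully mappable and lay outside published clusters. In 8 bins of 3L between 370001 and 378000, Rhino was 76.5 in control, 13.5 in rhino knockdown and 8.40 in piwi knockdown, and small RNA was 59.7 in control and 0.302, 0.516 and 0.553 in the knockdowns. In 7 bins of 3R between 26096001 and 26103000, none over an exon, small RNA was 17.9 in control and 0.158, 0.132 and 0.145 in the knockdowns, and RNA-seq was 0.218 and 0.581 in the controls and 0.0332, 0.0256 and 0.0302. In 8 bins of 2R between 3139001 and 3148000, small RNA was 48.3 in control and 0.43, 0.18 and 0.30. In 8 bins of X between 18431001 and 18445000, H3K9me3 was 14.1 in control, 20.8 in rhino knockdown and 10.4 in piwi knockdown.

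Some Rhino domains had little small RNA or stood in transcribed exons. In 6 bins of X between 4513001 and 4521000, 5 of them over exons, Rhino was 55.6 in control and 11.8 in rhino knockdown, but small RNA was 4.97 in control and 1.83, 2.03 and 2.06 in the knockdowns, and none of the bins carried the RD-SL flag. In 3 exon bins of X between 18406001 and 18409000, RNA-seq was 35.3 and 44.5 in the controls and 30.6, 32.8 and 36.1 in the knockdowns, with small RNA of 6.86 and 0.98, 1.06 and 0.73. H3K9me3 there was 112 in control. In 3 exon bins of 3R between 8188001 and 8191000 H3K9me3 was 3.16-fold lower in piwi knockdown, 29.3 in control against 9.27, and it was 27.4 in rhino knockdown.

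**Figure D5:**
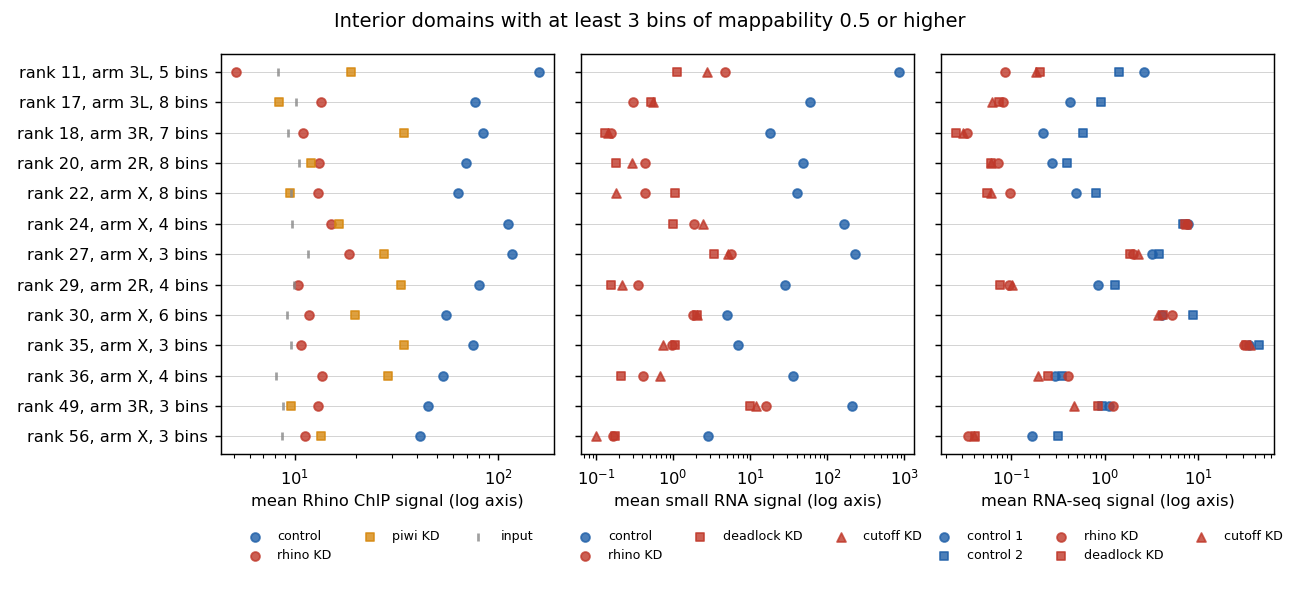
Mean Rhino, small RNA and RNA-seq signal (log axes) of the 13 interior domains with at least 3 mappable bins, ordered by their rank in Rhino signal, with colours and shapes for the libraries. Control small RNA lies right of all 3 knockdowns in 13 of 13 domains, while RNA-seq separates in 8.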

How the data were processed

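The authors deposited a table of 1-kb dm3 bins with 1 signal column per library or per mean of 2 libraries. The values' steps show reads scaled by library, divided by mappability and offset by 0.1 (0.01 for RNA-seq). Whole reads came out for 100% of values below 500 reads in the single-library columns (tolerance 0.1). The submitters' processing notes name Bowtie 0.12.7, GSNAP, SAMtools 0.1.16, bedtools 2.16.1, cutadapt 1.0 and dm3, with no parameters. Summed bin reads per library ran from 2000859 to 6402815 for small RNA, from 4058459 to 24734237 for ChIP, from 6822547 to 7238581 for GRO-seq and from 40172465 to 187929430 for RNA-seq.

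Python 3.11.15 with pandas 2.3.3 and SciPy 1.17.1 computed differences of log2(signal + 1), medians with distribution-free 95% intervals, and ratios of summed reads with exact Clopper-Pearson limits, which cover counting error only because no molecular identifiers are stated. RNA-seq was fitted with limma 3.58.1 in R 4.3.3, with Benjamini-Hochberg adjustment at 0.05, and checked on simulated data. The lone knockdown libraries were assumed to vary like the controls. No label says whether the controls are separate ovary samples, so p-values may measure technical spread. A limma fit of H3K9me3 was planned and not run, since its replicates come as means.

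The bins, domains and lists were chosen with earlier results of these data known. Named are the 12 domains with the most summed control Rhino minus input, 5 more by summed small RNA, the 5 bins richest in small RNA and 3 bins on each side of the threshold. H3K4me2 and capped RNA were not analysed here.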

Additional observations from a re-analysis of the deposited data

How the results depend on the processing

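Deadlock and Cutoff changed sign at a Rhino threshold of 2-fold, and Cutoff also with 1 bin per domain. For the values that moved, the cause was not tested. Where 1 bin per domain was taken, it was the bin with the highest control Rhino over input, the value that the rule used. The Rhino values of that setting are therefore no separate check. The limma counts of 0 per single knockdown come from a design that called 0% of simulated 8-fold changes for the rhino comparison, so they say nothing about stability. Values are median log2 differences over the bound bins, listed for control Rhino over input, Rhino in rhino, deadlock, cutoff and piwi knockdown, Deadlock and Cutoff over their own knockdowns, H3K9me3 over input and in rhino and piwi knockdown, small RNA and then RNA-seq in the 3 complex knockdowns, as far as each moved. A Rhino threshold of 2-fold gave 1.31, then -1.59, -1.77, -0.50 and -0.23 for Rhino, -0.50 for Deadlock and -0.56 for Cutoff. It gave 0.97, -0.24 and -0.039 for H3K9me3, -0.28, -0.28 and -0.28 for small RNA, -0.89 for Piwi-bound RNA, -0.068, -0.078 and -0.11 for RNA-seq and 0.00 for Pol II. A threshold of 8-fold gave 3.60, then -3.01, -2.98, -2.84 and -1.54, 0.99 and 0.41. It gave 2.35, -0.052 and -0.068 for H3K9me3, -4.78, -5.01 and -4.93 for small RNA, -5.70 for Piwi-bound RNA, -0.35, -0.36 and -0.36 for RNA-seq and -0.36 for Pol II. With 1 bin per domain, Rhino was -2.81, -1.65 and -0.77 in rhino, cutoff and piwi knockdown, Deadlock 0.061, Cutoff -0.067, H3K9me3 2.19, -0.29 and -0.24, small RNA -1.85, -1.85 and -1.82, Piwi-bound RNA -3.16 and RNA-seq -0.11, -0.12 and -0.12. Interior bins gave 2.50 for Rhino over input, 1.88 for H3K9me3, -2.37, -2.21 and -2.47 for small RNA, -3.56 for Piwi-bound RNA and -0.24 for Pol II. Mappable bins gave -2.39 and -1.53 for Rhino in cutoff and piwi knockdown, 0.68 and 0.43 for Deadlock and Cutoff, 1.72 for H3K9me3, -0.34, -0.38 and -0.39 for RNA-seq and -0.41 for GRO-seq. Without exon bins Deadlock was 0.28, H3K9me3 in piwi knockdown -0.079 and small RNA in rhino knockdown -4.17. A pseudocount of 0.1 gave 2.72, 2.18, then -4.80, -4.89 and -5.18 for small RNA, -6.56 for Piwi-bound RNA and -0.74, -0.70 and -0.71 for RNA-seq. A pseudocount of 5 gave 2.17, then -2.02, -1.99 and -1.80 for Rhino, 0.30 for Deadlock, 1.64 for H3K9me3, -2.47, -2.41 and -2.44 for small RNA, -3.02 for Piwi-bound RNA and -0.057, -0.064 and -0.072 for RNA-seq. With no input filter Rhino in cutoff knockdown was -1.95, Deadlock 0.13, small RNA -3.21, -2.96 and -3.18, Piwi-bound RNA -4.12, RNA-seq -0.16, -0.16 and -0.18, and Pol II -0.047. An input filter at 50% gave 0.29 for Cutoff. Centring on all bins gave 2.78, 2.77 for H3K9me3 over input, -0.23 for H3K9me3 in rhino knockdown and -2.28 for Rhino in cutoff knockdown. A mean RNA-seq signal of at least 0.1 gave -0.31, -0.33 and -0.32. Leaving out either RNA-seq control, values with no test, gave ranges of -0.26 to -0.14, -0.25 to -0.15 and -0.32 to -0.16. Without the bin richest in small RNA, summed small RNA in the knockdown over control was 0.0643 for rhino and 0.111 for deadlock. Scaling to the small RNA reads of the table, chosen after seeing the data, gave small RNA medians of -3.45, -3.39 and -3.55.

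No paired analysis was possible because the same-numbered ChIP replicates come as the authors' means and the knockdown RNA-seq groups have 1 library each. Depth limits the single sites: in bins of mappability near 0, 1 read moves the signal by a large amount, and 35 of the 388 bins had no control small RNA read. RNA-seq medians near 0.1 rest on few reads, and 121 bins had no GRO-seq read in either library.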
